A study of Homo sapiens with 15 samples.

Results

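MIA PaCa-2 cells, an established line from a human pancreatic carcinoma, were treated with the agent labelled BAQ12O and compared with cells given vehicle. The comparison took the 3 libraries titled BAQ12O and the 3 titled Ctrl, which are 6 of the 15 libraries of the series. The other 9 libraries came from cells given Lys05, BAQ12 or BAQ13, with 3 libraries per agent. The treated cells received their agent at 5 µM, and RNA was taken after 24 h. The series description writes the agent as 12O, and its structure is not given here because the sources name it by code only. Gene expression was measured by RNA sequencing, and each library carried 1 normalised read count per gene.

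Lysosomes are the acidic compartments in which cells digest proteins, lipids and worn-out organelles, and weak bases gather in them. Cholesterol that enters a cell by endocytosis passes through the lysosome on its way to the endoplasmic reticulum, where a low sterol level releases the SREBP factors that switch on the genes of cholesterol and fatty acid synthesis. Lysosomal stress can also free the factor TFEB, which binds the CLEAR element in promoters of lysosome and autophagy genes. Mitochondria carry their own small genome, whose strands are transcribed into long RNAs that are cut into mRNAs, rRNAs and tRNAs.

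Between 1586566 and 2203652 reads fell on genes in the BAQ12O libraries and between 1864594 and 2500551 in the vehicle libraries. A count of 0 in a library was compatible with a normalised count of up to 2.49 to 4.14, the worth of 3 reads, which covers counting error only. In the 6 libraries the epithelial keratins KRT8, KRT18 and KRT19 and the mesenchymal filament gene VIM were detected and tested, whereas the epithelial genes KRT7, EPCAM and CDH1 stayed below the count filter. None of 6 acinar and endocrine pancreas markers passed the filter, with a summed normalised count of 0 to 1.38 per library, and of 10 fibroblast, leukocyte and endothelial markers COL1A2 was the member that passed. A library outside the comparison, BAQ12 replicate 3, stood apart from all others, with correlations of 0.926 to 0.969 against the other 14 libraries. It entered the estimate of the spread that all comparisons shared, so counts are also given without it. Fewer cells of a kind and less RNA per cell cannot be told apart in these bulk samples, and the labels do not say that the libraries came from separate cultures.

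BAQ12O changed 155 of 10495 genes tested, which was 1.48% of them, at an adjusted p under 0.05 in limma on log2(normalised count + 1). Of these, 98 genes (0.934%) were higher and 57 (0.543%) were lower with BAQ12O. The changes were moderate: the median called difference was 0.68 on the log2 scale among the higher genes and −0.63 among the lower genes, and 19 higher and 9 lower genes moved by at least 2-fold. All 155 genes had 3 BAQ12O values outside the range of the 3 vehicle values, a pattern held by 2712 genes, or 25.8% of those tested. Without BAQ12 replicate 3 the fit called 524 genes (4.99%), of which 282 (2.69%) were higher and 242 (2.31%) lower, and all 155 genes were among them. With the 6 compared libraries alone the count was 871 (8.3%), with 426 higher (4.06%) and 445 lower (4.24%). Leaving out any 1 of the 6 libraries gave 75 to 102 genes, and 54 of the 155 stayed called in each of these 6 fits. A cut of a fold change of at least 2 with an unadjusted p of at most 0.05 took 100 genes (0.953%), 65 (0.619%) of them higher. The study used these thresholds with t tests on normalised counts and another set of genes, whereas fold change and p came from limma here. At an unadjusted p under 0.05 alone, 1339 genes (12.8%) passed.

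**Figure D1:**
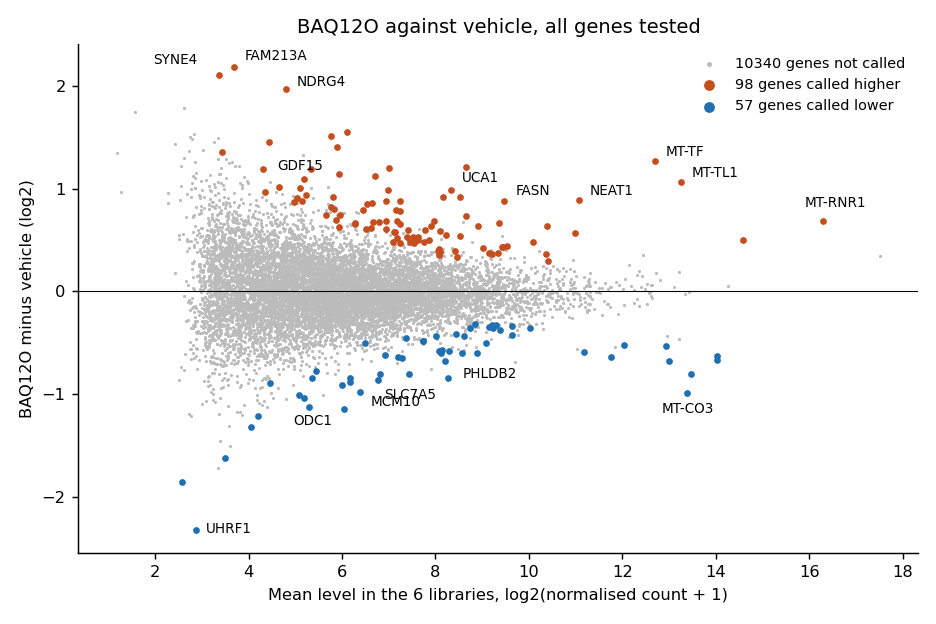
Each point is a gene, placed by its mean level in the 6 libraries on the log2(normalised count + 1) scale and by the difference BAQ12O minus vehicle in log2 units. The 98 genes called higher (orange) and 57 called lower (blue) stand out from the genes not called (grey), with UHRF1 lowest and FAM213A highest among them.

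Most messenger RNAs of the mitochondrial heavy strand fell. The 12 mRNAs encode subunits of the respiratory chain and of ATP synthase, and all 12 had lower values with BAQ12O, with a median difference of −0.61 on the log2 scale against −0.00 over all genes. The test called 9 of the 12 lower, and without BAQ12 replicate 3 it called all 12. Of all genes, 0.543% and 2.31% were called lower in these fits. MT-CO3, a subunit of cytochrome c oxidase (chrM:9207-9990, plus strand), had normalised counts of 14556, 13987 and 13901 in the vehicle libraries and of 7042, 7180 and 7187 with BAQ12O. All BAQ12O values lay far below all vehicle values, and the difference was −0.99 ± 0.13 (SE, n = 3 per group; adjusted p = 0.000502, limma). It was the largest decrease of the group. MT-ATP6, a subunit of ATP synthase, went from a mean of 14313 ± 358 to 8255 ± 1201 (SD, n = 3), a difference of −0.80 ± 0.10 (SE; adjusted p = 0.000502, limma). MT-CO1, the catalytic subunit of cytochrome c oxidase, stood at 4147, 4291 and 4212 with vehicle and at 2609, 2659 and 2843 with BAQ12O. The groups were well apart, at −0.64 ± 0.07 (SE; adjusted p = 0.000104, limma). The other called members were MT-ND1, MT-ND2, MT-ND3, MT-ND4, MT-ND4L and MT-ATP8, between −0.52 and −0.68, and of the 9 only MT-ND2 lost its call when a library was left out (adjusted p of up to 0.0957, lost in each of the 6 fits). MT-CYB (−0.44), MT-ND5 (−0.46) and MT-CO2 (−0.55) had adjusted p values of 0.064, 0.0559 and 0.212.

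Of the 25 remaining genes of the mitochondrial genome, 21 passed the filter, 6 of these were called higher and none lower, and the median difference was 0.34. Higher values were seen in 18 of the 21 and lower values in 3, and without BAQ12 replicate 3 the test called 10 higher. The shares of all genes called higher were 0.934% in the shared fit and 2.69% without that library. MT-TF, the gene of the phenylalanine tRNA (chrM:577-647, plus strand), had 3959, 3944 and 3725 normalised counts with vehicle and 8965, 9709 and 9430 with BAQ12O. No BAQ12O value came near the vehicle range, and the difference of 1.27 ± 0.21 (SE; adjusted p = 0.00333, limma) was the largest in this group. MT-TV, MT-TC and MT-TL1, for the valine, cysteine and a leucine tRNA, were higher by 1.22, 1.21 and 1.06. MT-RNR1, the small ribosomal RNA, which lies between MT-TF and MT-TV (chrM:648-1601), rose from 61309 ± 2380 to 98649 ± 6992 (SD, n = 3), or by 0.68 ± 0.11 (SE; adjusted p = 0.00329, limma). MT-RNR2, the large ribosomal RNA, differed by 0.34 with an adjusted p of 0.105, and of 0.00064 without BAQ12 replicate 3. MT-ND6, the mRNA of the opposite strand (chrM:14149-14673, minus strand), had 563, 481 and 476 normalised counts with vehicle and 841, 804 and 775 with BAQ12O. It was thus higher in each treated library, by 0.67 ± 0.13 (SE; adjusted p = 0.00833, limma), while the heavy-strand mRNAs were lower, and it lost its call without vehicle replicate 2 or 3 (adjusted p of up to 0.0623). MT-TC lost its call without BAQ12O replicate 2 (adjusted p = 0.056). Reads on a mitochondrial tRNA gene cannot be told from reads on an uncut precursor that spans it, and the counting is not stated to use strand, so that reads of MT-ND6 and of RNA antisense to it cannot be told apart.

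Summed over each library, the 12 heavy-strand mRNAs took 6.02% ± 0.095 of the reads with vehicle and 3.74% ± 0.19 with BAQ12O (SD, n = 3). The 2 rRNAs took 10.9% ± 0.31 and 14.5% ± 0.62, and the 22 tRNA genes 0.678% ± 0.017 and 1.29% ± 0.055. The ratio of heavy-strand mRNA to rRNA reads was 0.568, 0.538 and 0.546 in the vehicle libraries and 0.258, 0.257 and 0.261 in the BAQ12O libraries. The ratio thus fell to 0.469 of its vehicle mean in libraries that varied little among themselves. An exact permutation test of 3 against 3 libraries cannot give a p below 0.1, and it gave 0.1 for each of these 4 measures. Of 73 tested nuclear genes of the respiratory chain none was called, 54 had lower values, and their median was −0.10. Among 21 nuclear genes of mitochondrial RNA synthesis and processing, none was called and the median was −0.22. Without BAQ12 replicate 3, 2 of the 73 and 1 of the 21 were called lower, against 2.31% of all genes.

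**Figure D2:**
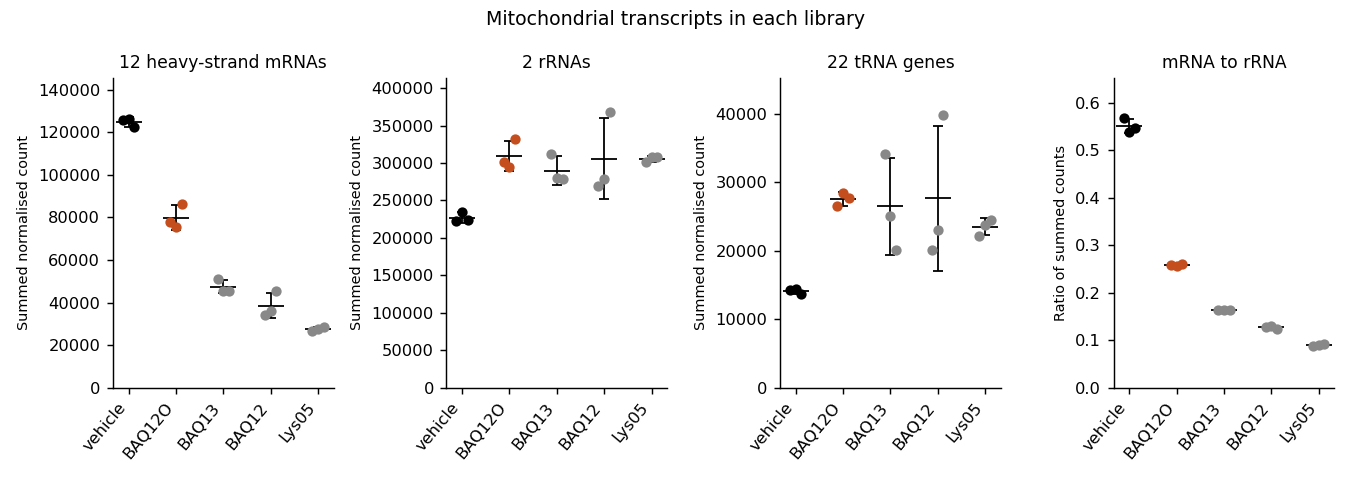
Each point is a library, the bars are the mean ± SD of 3 libraries, and the y axes give summed normalised counts (left to right: 12 heavy-strand mRNAs, 2 rRNAs, 22 tRNA genes) or the ratio of mRNA to rRNA counts. BAQ12O (orange, ratio 0.258) lay between vehicle (black, 0.550) and the other 3 agents (grey, 0.0900 to 0.163) in the mRNA panels, and near those agents in the rRNA panel.

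Of 21 enzymes of cholesterol synthesis, all of which were tested, 7 rose and none fell, 19 had higher values, and the median difference was 0.54. Of all genes tested, 0.934% were called higher and 0.543% lower. FDPS, which makes farnesyl diphosphate (chr1:155308748-155320666), stood at 263, 240.1 and 253 with vehicle and at 476, 497 and 463 with BAQ12O, a difference of 0.92 ± 0.14 (SE; adjusted p = 0.00181, limma). MSMO1, a sterol-C4-methyl oxidase (chr4:165327623-165343160), had 69.7, 51.4 and 75.3 normalised counts with vehicle and 139, 142 and 146 with BAQ12O. Its treated values were close to each other and about 2-fold above vehicle, at 1.13 ± 0.14 (SE; adjusted p = 0.000438, limma). SQLE, the squalene epoxidase, was higher by 0.60 and EBP, a sterol isomerase, by 0.68. LSS, FDFT1 and ACAT2, which act at the closing of the sterol ring, in squalene synthesis and at the start of the pathway, were higher by 0.92, 0.59 and 0.53. MSMO1, FDPS, SQLE and EBP kept their calls under every one of the 18 alternatives, whereas LSS, FDFT1 and ACAT2 lost theirs in 3, 4 and 6 of the 6 fits with 1 library left out (adjusted p of up to 0.0737, 0.0934 and 0.141). HMGCS1, an early enzyme and a standard SREBP2 target, had 59.8, 56.9 and 55.1 with vehicle and 102, 103 and 91 with BAQ12O. These values did not overlap, yet the difference in the shared fit was 0.77 ± 0.22 (SE) with an adjusted p of 0.109 (limma). Its adjusted p without BAQ12 replicate 3 was 3.3e-05. That fit called 9 of the 21 enzymes higher, against 2.69% of all genes, with HMGCS1 and MVD added.

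In fatty acid synthesis 3 of 19 tested genes were called higher, against 0.934% of all genes, and none lower, and the median was 0.25. FASN, the fatty acid synthase (chr17:82078333-82098332, minus strand), had 496, 495 and 506 normalised counts with vehicle and 926, 935 and 903 with BAQ12O. The replicates of each group differed by a few percent and the groups by 0.88 ± 0.08 (SE; adjusted p = 1.39e-05, limma). SCD, the stearoyl-CoA desaturase, rose from 1629 ± 14.6 to 2422 ± 149.9 (SD, n = 3), or by 0.57 ± 0.07, and ACSS2, which makes acetyl-CoA from acetate, by 0.94 ± 0.21 (SE; adjusted p = 0.000242 and 0.0272, limma). FASN and SCD were called under all 18 alternatives, whereas ACSS2 lost its call without BAQ12O replicate 1, 2 or 3 or vehicle replicate 1 (adjusted p of up to 0.125). The 10 tested genes of SREBP control and lipoprotein uptake gave no call, with a median of 0.08. INSIG1, a sterol sensor and SREBP target, differed by 0.50 (adjusted p = 0.066, and 0.0041 without BAQ12 replicate 3). NPC1, which exports cholesterol from lysosomes, had 31.5, 31.3 and 36.7 with vehicle and 48.5, 38.1 and 62 with BAQ12O, with an adjusted p of 0.476. Of 5 tested LXR targets none was called (median −0.12).

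In 4 lists of genes of the lysosome itself, 3 members passed the test, all of them higher. The 17 tested subunits of the V-ATPase, the proton pump of the lysosome, gave no call, although 15 had higher values (median 0.16). None of 12 cathepsins and cystatins was called (median 0.02), 1 of 32 glycan and lipid hydrolases was (median 0.15), and so were 2 of 25 lysosomal membrane proteins (median 0.16), where 0.934% of all genes were called higher. The counts called higher without BAQ12 replicate 3 were 1 for the V-ATPase, 1 for the cathepsins, 3 for the hydrolases and 2 for the membrane proteins, and with the 6 compared libraries alone they were 1, 2, 6 and 2. The shares of all genes called higher in these 2 fits were 2.69% and 4.06%. NEU1, a lysosomal sialidase, had 36.5, 22.3 and 31.2 normalised counts with vehicle and 53.9, 47.7 and 41.4 with BAQ12O. These groups did not overlap, and the adjusted p was 0.103 in the shared fit (difference 0.67) and 0.0212 without BAQ12 replicate 3. The hydrolase list's member was TPP1, a lysosomal peptidase, which rose from 118 ± 8.48 to 169.6 ± 6.21 (SD, n = 3; difference 0.52, adjusted p = 0.0093, limma). SLC17A5, the sialic acid exporter of the lysosome (chr6:73593379-73654155, minus strand), had 76.4, 69.2 and 64.3 normalised counts with vehicle and 115, 137 and 131 with BAQ12O. The lowest treated value exceeded the highest vehicle value by a wide margin, and the difference was 0.86 ± 0.12 (SE; adjusted p = 0.000815, limma). The other membrane gene was LITAF, of late endosomes, at 0.33. TPP1 lost its call in 3 of 6 fits with 1 library left out (adjusted p of up to 0.062) and LITAF in all 6 (up to 0.124).

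The kinase mTORC1 is controlled at the lysosome surface. Of 21 tested genes of the TFEB family and mTORC1 control, 4 were called higher and none lower, while the list's median was 0.08. The share of all genes called higher was 0.934%. TSC1, which restrains mTORC1 (chr9:132891348-132946874, minus strand), had 106, 109 and 116 with vehicle and 194, 184 and 196 with BAQ12O (difference 0.79 ± 0.11, SE; adjusted p = 0.000775, limma). FLCN and its partner FNIP1, which act on the Rag GTPases, were higher by 0.79 and 0.50, and the Rag GTPase gene RRAGD by 0.65. RRAGD stood at 120.4, 112 and 117 with vehicle and at 172, 180.2 and 199.9 with BAQ12O. The treated values all lay above the vehicle values, but FLCN lost its call in 4 of 6 fits with 1 library left out (adjusted p of up to 0.0966) and RRAGD in 1, without BAQ12O replicate 3 (0.0545). The same 4 genes were called without BAQ12 replicate 3, where 2.69% of all genes were called higher.

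Among autophagy genes, 2 of 15 tested receptors and ATG8 genes and 1 of 30 autophagosome core genes were called, all higher, with list medians of 0.01 and 0.06. Over all genes tested, 0.934% were called higher. SQSTM1, the cargo receptor p62 (chr5:179806398-179838078), had 282, 309 and 312 normalised counts with vehicle and 489, 543 and 474 with BAQ12O, a difference of 0.73 ± 0.11 (SE; adjusted p = 0.00163, limma). The receptor OPTN was higher by 0.47 (adjusted p = 0.0348) and ATG14, a subunit of the autophagy lipid kinase, by 0.61 (adjusted p = 0.0225, limma), and each lost its call in some fits with 1 library left out (up to 0.188 and 0.147). MAP1LC3B, the most used autophagosome marker gene, had overlapping groups, with 159.7 ± 11.1 and 161 ± 13.4 (SD, n = 3; adjusted p = 0.984).

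Promoters of these groups were read from RefSeq (GRCh38.p14), over 250 bases before each start, for 7 letters of the sterol response element (ACCCCAC), of the CLEAR element (TCACGTG) and of the CEBP-ATF element (TGATGCA), on either strand. A promoter was given for 8320 of the 10495 genes, for 68 of the 98 higher and for 36 of the 57 lower genes. Letters of the sterol element were in 7 of the 68 higher genes (10.3%), against 7.22% of all tested genes, and CLEAR letters in 4 of 68 (5.88%) against 7.09%. The letters of the CEBP-ATF element were in none of the 68 and in 1 of the 36 lower genes (2.78%), against 1.39%. CLEAR letters were in 6 of 19 promoters of the TFEB and mTORC1 list (31.6%), in 6 of 21 of the hydrolases (28.6%), in 4 of 21 of the lysosomal membrane proteins (19.0%) and in none of 12 of the autophagy receptors. Of the called members of these lists FNIP1 held them at 2 places, 175 and 94 bases before its start. None of the 3 runs of letters lies within another, but their ends can overlap. The sterol letters were in 2 of 16 promoters of the cholesterol enzymes, in 2 of 18 of the fatty acid list and in 3 of 12 of the autophagy receptors, with SQSTM1 and OPTN among the last. The windows of called members of the sterol, fatty acid, lysosome and autophagy lists that held CLEAR or sterol letters are shown with these letters in capitals, on the strand of the gene, so that the matches can be seen in their surroundings. FNIP1 (minus strand) lies at chr5:131797175-131797203 and chr5:131797094-131797122, ATG14 (minus) at chr14:55411834-55411862, ACSS2 (plus) at chr20:34874785-34874813, SQSTM1 (plus) at chr5:179806207-179806235 and OPTN (plus) at chr10:13100000-13100028.
FNIP1, CLEAR, 175 bases before the start: cccgcccctgcCACGTGAcgggacccgcc
FNIP1, CLEAR, 94 bases before the start: ccgcgcgccgcCACGTGAtgcggcccccc
ATG14, CLEAR: aaacaaaatccCACGTGActggctctcct
ACSS2, sterol element: ctgaccccttgGTGGGGTctatgtccacc
SQSTM1, sterol element: cctctccgagaACCCCACgggtccccagc
OPTN, sterol element: gccttggtcggGTGGGGTatggaatgggc
None of the 4 called cholesterol enzymes with a promoter held the 7 letters of the sterol element in this window.

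Genes of the integrated stress response, which the factor ATF4 drives when translation is curbed, were called in both directions. Of 31 tested, 1 was called higher and 1 lower, against 0.934% and 0.543% of all genes, with a median of −0.09. GDF15, a secreted stress signal (chr19:18374731-18389176), had 42.3, 30.1 and 38.6 normalised counts with vehicle and 85.2, 91.5 and 71.7 with BAQ12O, a difference of 1.15 ± 0.16 (SE; adjusted p = 0.000778, limma). SLC7A5, a transporter of large neutral amino acids (chr16:87830023-87869488, minus strand), stood at 218, 218 and 221 with vehicle and at 121, 144 and 113 with BAQ12O, and fell by 0.80 on the log2 scale (SE 0.13; adjusted p = 0.00263, limma). Both genes kept these calls under all 18 alternatives. The letters of the CEBP-ATF element were in 6 of 28 promoters of this list (21.4%), against 1.39% of all tested genes. Neither GDF15 nor SLC7A5 held them. DDIT3, the factor CHOP, had 34.9, 34.6 and 37.6 with vehicle and 60.4, 57.2 and 71.7 with BAQ12O, with an adjusted p of 0.0717. ASNS, the asparagine synthetase, differed by −0.35 (adjusted p = 0.203) and TRIB3 by 0.09 (0.91). Without BAQ12 replicate 3 the list had 4 higher and 5 lower members called, against 2.69% and 2.31% of all genes. Added to GDF15 were DDIT3, CEBPB and PPP1R15A, and added to SLC7A5 were ATF5, PSAT1, MTHFD2 and SLC7A11. None of 20 chaperones of the endoplasmic reticulum, 15 heat shock genes, 19 genes of oxidative stress defence or 12 members of the BCL2 family was called.

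**Figure D3:**
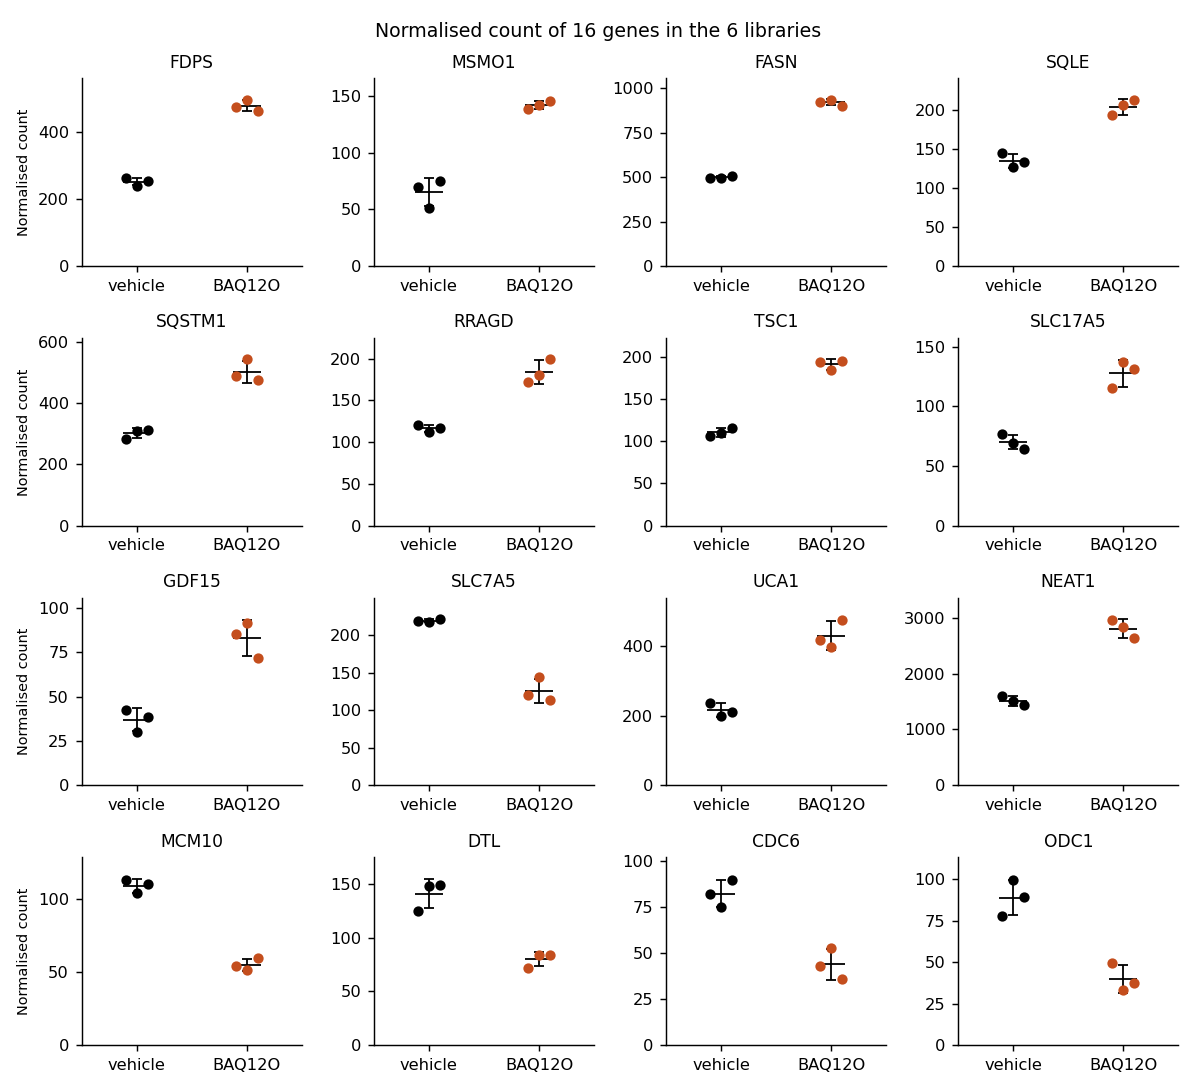
Each panel shows the normalised count (y axis, from 0) of a gene in the 3 vehicle libraries (black) and the 3 BAQ12O libraries (orange), with the mean ± SD. All 16 genes shown are called genes, none of which had overlapping groups, so the gap in each panel follows from the choice of genes. SLC7A5, MCM10, DTL, CDC6 and ODC1 are the genes lower with BAQ12O.

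Of 36 tested genes of DNA replication, 5 were called lower and none higher with BAQ12O, where 0.543% of all genes were called lower. Lower values were seen in 33 of the 36, and the median was −0.39. MCM10, which loads the replication machinery (chr10:13161554-13211104), had 113, 104 and 110.2 normalised counts with vehicle and 53.9, 51.5 and 59.3 with BAQ12O, a difference of −0.98 ± 0.14 (SE; adjusted p = 0.000917, limma). CDC6, which prepares replication origins, stood at 82.2, 74.8 and 90.0 with vehicle and at 43.1, 52.4 and 35.8 with BAQ12O (−0.91; adjusted p = 0.0262). The helicase subunits MCM3 and MCM4 were lower by −0.62 and −0.58 in log2 units. UHRF1, which maintains DNA methylation during replication (chr19:4903080-4962154), had the largest fitted decrease of all called genes, −2.32 ± 0.47 (SE; adjusted p = 0.0152, limma). It rested on 34 reads in the vehicle libraries and 5 in the BAQ12O libraries, whose values of 2.16, 2.86 and 0 lay within the limit that a count of 0 allows. MCM10 kept its call under all 18 alternatives, whereas CDC6, MCM3, MCM4 and UHRF1 lost theirs in 5, 1, 6 and 3 of the 6 fits with 1 library left out. Without BAQ12 replicate 3, 12 of the 36 were called lower, against 2.31% of all genes, PCNA (−0.63) and MCM2 (−1.01) among them.

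Some further called decreases are given gene by gene, and DTL, XRCC2 and CDCA7 were picked after their values were seen. DTL, a ubiquitin ligase subunit of S phase, had 125, 149 and 149.6 with vehicle and 72.2, 83.9 and 84.1 with BAQ12O (−0.81; adjusted p = 0.00227). XRCC2, of homologous recombination, differed by −0.84 and CDCA7, a MYC and E2F target, by −0.64. The DNA helicase gene BRIP1 (−1.04), the protease gene FAM111B (−1.13), PSMC3IP, a recombination cofactor (−1.62), and ZNF367 (−1.22) were among the 15 largest decreases. Apart from DTL, these genes lost their calls in 3 to 5 of the 6 fits with 1 library left out. Of 34 genes of mitosis none was called, with a median of 0.07 and 23 higher values. MKI67, the proliferation marker Ki-67, had 844, 849 and 809.6 with vehicle and 1015, 975 and 1187 with BAQ12O, a difference of 0.34 with an adjusted p of 0.051 (limma). Its adjusted p without BAQ12 replicate 3 was 0.00394, and that fit called 2 genes of mitosis higher, against 2.69% of all genes. Cyclin D1, CCND1, was lower, with 499.8, 477 and 454 against 399, 366 and 354 (−0.35; adjusted p = 0.0326), and lost its call in 5 of 6 fits with 1 library left out (adjusted p of up to 0.154).

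The largest increases were of genes with low counts. FAM213A, now named PRXL2A, a redox protein gene (chr10:80407829-80437115), had 1.66, 4.47 and 5.51 normalised counts with vehicle and 21.6, 16.2 and 22.1 with BAQ12O, at 2.19 ± 0.31 (SE; adjusted p = 0.000815, limma). SYNE4, a nuclear envelope protein gene, went from 2.49, 4.47 and 1.84 to 16.2, 18.1 and 12.4 (2.12; adjusted p = 0.00611). NDRG4 (chr16:58462846-58513628) went from 7.47, 10.05 and 13.8 to 35.6, 46.7 and 46.9 (1.97; adjusted p = 8.85e-05). In each the treated libraries were several-fold above the vehicle libraries, and each kept its call with any 1 library left out. CREB3L3, a membrane-bound transcription factor of liver and gut, was higher by 1.52, the glycolytic aldolase ALDOC by 1.46, UAP1L1 by 1.41, the small GTPase RAB17 by 1.36 and the protease inhibitor SERPINA5 by 1.19. The glucose transporter SLC2A3 and the enolase ENO2 were the called members of 19 tested hypoxia-responsive genes, higher by 1.10 and 0.85, and ALDOC was the called member of 13 glycolysis genes. Among all genes tested, 0.934% were called higher. Neither list moved as a whole: of the 19 genes 9 had higher and 10 lower values (median −0.02). Of the 13 genes 5 had higher and 8 lower values (median −0.04). SLC2A3 and ENO2 each lost their call in 1 of the 6 fits with 1 library left out, without vehicle replicate 3 (adjusted p = 0.0536) and 2 (0.0537). CREB3L3, ALDOC, RAB17 and SERPINA5 lost their calls in 3 to 6 of the 6 fits with 1 library left out.

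The called long noncoding RNAs NEAT1, UCA1 and MALAT1 were chosen after their values were seen. NEAT1, the scaffold of paraspeckles (chr11:65422774-65445540), had 1597, 1509 and 1431 normalised counts with vehicle and 2967, 2828 and 2631 with BAQ12O, a difference of 0.89 ± 0.07 (SE; adjusted p = 2.9e-06, limma). UCA1 (chr19:15828206-15836326) stood at 238, 199 and 211 with vehicle and at 417, 399 and 477 with BAQ12O, 0.99 ± 0.09 higher (adjusted p = 1.42e-05). MALAT1 rose from 20429 ± 462 to 28942 ± 2463 (SD, n = 3), or by 0.50. All 3 kept their calls under every alternative. CTD-2228K2.7, a processed transcript among the 15 largest increases, differed by 1.56.

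ODC1, which makes putrescine from ornithine (chr2:10439968-10448504, minus strand), had 78, 99.4 and 89 normalised counts with vehicle and 49.6, 33.4 and 37.2 with BAQ12O, a difference of −1.14 ± 0.21 (SE; adjusted p = 0.00833, limma). SAT1, the spermidine/spermine acetyltransferase, and SAT2, a related acetyltransferase gene, both chosen after their values were seen, were higher by 0.53 and 0.89. SAT2 went from 89.7, 84.9 and 82.6 to 143, 166 and 170. ODC1 lost its call without BAQ12O replicate 2 or 3 or vehicle replicate 2 (adjusted p of up to 0.0601) and SAT1 in 5 of 6 such fits (up to 0.145), whereas SAT2 kept it.

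PHLDB2, which anchors microtubules at the cell cortex (chr3:111732497-111976517), had 395, 418 and 377 with vehicle and 215, 229.8 and 215 with BAQ12O (−0.85 ± 0.10, SE; adjusted p = 0.000104, limma). AMOTL2, a YAP-binding protein gene and the called member of 12 immediate early and YAP target genes, stood at 129.5, 131 and 159 with vehicle and at 87.3, 82 and 60.7 with BAQ12O (−0.87; adjusted p = 0.00317). CAV1, the caveolin gene, chosen after its values were seen, differed by −0.68. Both keratins KRT8 and KRT18 were lower, by −0.60 and −0.43, while KRT19 (0.12) and VIM (−0.03) were not called, and the 7 epithelial and mesenchymal markers summed to 11449 to 12074 with BAQ12O and 11910 to 12422 with vehicle. KRT18 lost its call with any 1 library left out (adjusted p of up to 0.133). The transferrin receptor TFRC was lower by −0.65 and was the called member of 12 iron genes, FNDC5 by −1.32, TBC1D2 by −1.01, the cytokine CLCF1 by −0.89 and the pentraxin PTX3 by −0.88. CHMP6, a subunit of the membrane-scission complex ESCRT-III and the called member of 23 lysosome repair genes, had 27 reads in the vehicle libraries and 4 in the BAQ12O libraries. The share of all genes called lower was 0.543%, beside these single members of the YAP, iron and repair lists. TFRC, TBC1D2, FNDC5, CLCF1, PTX3 and CHMP6 lost their calls in 2 to 6 of the 6 fits with 1 library left out.

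Of the lists not yet named, TARS (−0.32), which charges threonine tRNA, was the called member of 19 aminoacyl-tRNA synthetases (median −0.15). Among all genes, 0.543% were called lower. TARS lost its call in all 6 fits with 1 library left out (adjusted p of up to 0.203). None of 31 proteasome subunits (median −0.20, with 27 lower values), 78 cytosolic ribosomal protein genes (−0.01), 27 genes of membrane traffic (0.02), 19 of phospholipid metabolism (0.04), 10 metallothionein and zinc genes (0.17), 10 inflammatory (0.12), 10 interferon (0.09) or 5 chloride channel genes (0.38) was called. Without BAQ12 replicate 3, 5 proteasome subunits were called lower, by up to −0.81, where 2.31% of all genes were called lower. For the lists with no call in limma, edgeR also called no member, and DESeq2 called 2 genes of mitosis. At an unadjusted p under 0.05 these lists held 0 to 4 higher members, and 0 to 10 lower members, with 10 of them among the proteasome subunits.

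**Figure D4:**
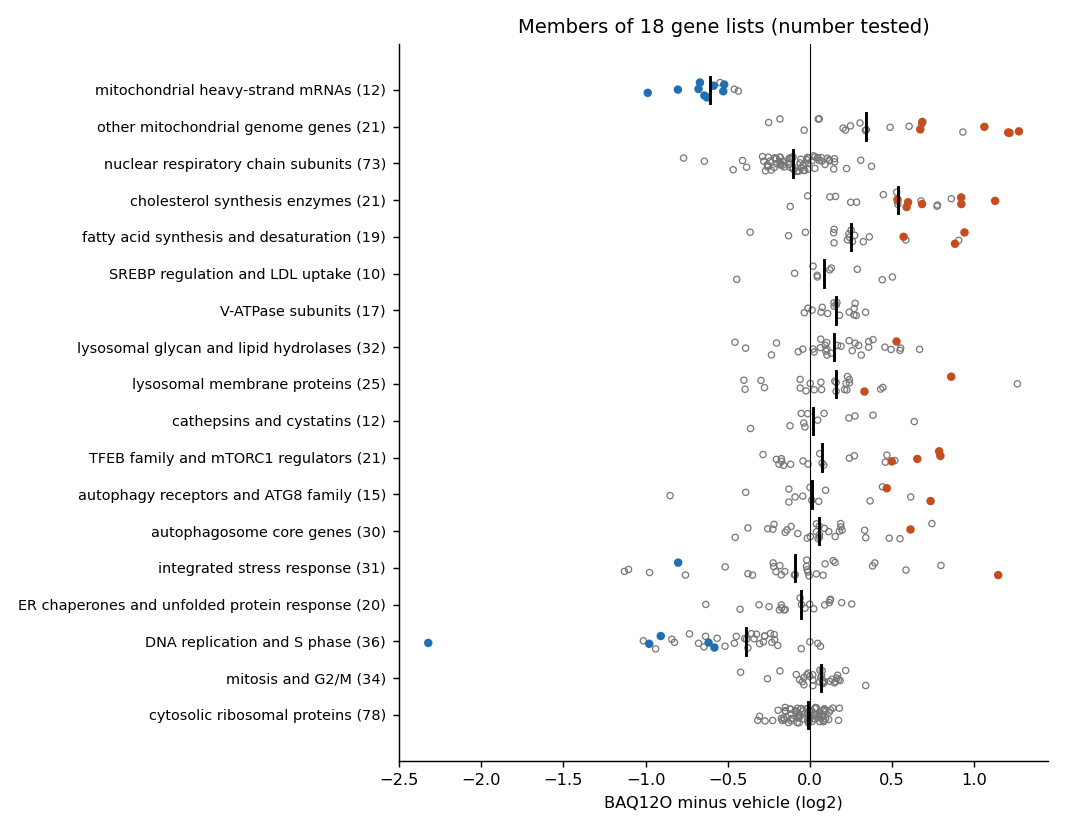
Each circle is a tested member of a gene list, placed by its difference BAQ12O minus vehicle in log2 units; filled circles passed the test (orange higher, blue lower) and black bars are list medians. The medians of the heavy-strand mRNAs (−0.61) and DNA replication genes (−0.39) lie left of 0 and that of the cholesterol enzymes (0.54) right of it, while the ribosomal protein genes centre near 0.

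BAQ12O was then set directly against each of the other agents at the same dose and time, 3 pairs in all that share the BAQ12O libraries. The study describes BAQ12 and BAQ13 as self-assembled nanoparticles, whereas the form in which BAQ12O was given could not be worked out. Effects of the compound and of its form therefore cannot be told apart in these pairs. The fit called 24 genes against BAQ12 (0.229%), 146 against BAQ13 (1.39%) and 26 against Lys05 (0.248%). Higher with BAQ12O were 21 of the first (0.2%), 49 of the second (0.467%) and 23 of the third (0.219%), and lower were 3 (0.0286%), 97 (0.924%) and 3 (0.0286%). With p values adjusted over the 3 pairs together the counts were 27, 100 and 29. Without BAQ12 replicate 3 they were 54 (0.515%), 387 (3.69%) and 83 (0.791%).

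All 12 heavy-strand mRNAs were called higher with BAQ12O than with BAQ12 and than with Lys05, and 11 of 12 than with BAQ13, with median differences of 1.07, 1.56 and 0.78. MT-ND3 showed the largest difference from BAQ12, 1.46 (95% interval 1.28 to 1.64; adjusted p = 3.9e-08, limma), with means of 10038 for vehicle, 6302 for BAQ12O, 3122 for BAQ13, 2288 for BAQ12 and 1977 for Lys05. MT-CO2 was the member not called against BAQ13 (0.62, adjusted p = 0.17). The ratio of heavy-strand mRNA to rRNA reads had the same order, at 0.550, 0.258, 0.163, 0.127 and 0.0900, and no 2 of the neighbouring groups overlapped. The interval of the difference for MT-RNR1 was −0.27 to 0.21 against BAQ12, −0.13 to 0.35 against BAQ13 and −0.36 to 0.12 against Lys05. MT-TI, the isoleucine tRNA gene, was not called against vehicle (0.22) but was called higher with BAQ12O than with all 3 agents, by 1.30, 1.09 and 1.24, and MT-TC was called lower than with Lys05, by −1.47. MTATP6P1 and MTND2P28, nuclear copies of mitochondrial genes that were called higher than with BAQ12, can share reads with the originals.

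All 21 cholesterol enzymes had lower values with BAQ12O than with BAQ13 and 16 were called lower, with a median difference of −1.15. HMGCS1 averaged 57.3 with vehicle, 98.8 with BAQ12O and 611 with BAQ13, a direct difference of −2.61 (95% interval −3.09 to −2.14; adjusted p = 2.6e-06, limma). Against BAQ12 none of the 21 was called, at a median of −0.20. edgeR also called none and DESeq2 called 1, 7 were lower at an unadjusted p under 0.05, and the fit without BAQ12 replicate 3 called 3 lower. The interval against BAQ12 reached from −0.97 to −0.37 for FDPS and from −0.62 to −0.01 for MSMO1. Against Lys05 2 enzymes were called higher with BAQ12O, MSMO1 (1.02) and EBP (0.49), and FASN (0.52) with them. Summed over the 21 enzymes, BAQ12O libraries held 2698 to 2791 normalised counts, above vehicle (1797 to 1854) and Lys05 (2013 to 2112) and below BAQ12 (3432 to 3604) and BAQ13 (6646 to 6905), with no overlap between groups.

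Other genes told BAQ12O from some of the other agents. IL21R, a cytokine receptor gene, and PLA2G3, a secreted phospholipase gene, had means of 2.17 and 3.65 with BAQ12O and 18.5 and 18.4 with BAQ13, and were called lower by −2.64 and −2.17. Their BAQ12O means lay below or within the 2.86 to 4.14 that a count of 0 allows in the BAQ12O libraries. The sterol exporter ABCA1 had a mean of 13.1 with BAQ12O and 2.35 with BAQ13 and was called higher by 2.05, and KCNQ1OT1, an antisense RNA, by 1.13. With vehicle ABCA1 averaged 9.64, in overlapping groups, and BAQ12O was not called against vehicle (0.35; adjusted p = 0.74, limma). NEAT1 was higher with BAQ12O than with BAQ12 (0.51; adjusted p = 0.00088) and Lys05 (0.56; adjusted p = 0.00023), and not called against BAQ13 (0.12). SQSTM1 was higher than with Lys05 (0.55; adjusted p = 0.048) and lower than with BAQ13 (−0.47; adjusted p = 0.043). UCA1 was likewise higher than with Lys05 (0.59) and lower than with BAQ13 (−0.79). AMOTL2 was lower than with BAQ12 (−0.80; adjusted p = 0.019), and PHLDB2 was lower than with Lys05 (−0.57) and higher than with BAQ13 (0.52). Of the 36 DNA replication genes none was called in any of the 3 pairs, with medians of −0.04 against BAQ12, 0.10 against BAQ13 and −0.20 against Lys05, and the interval for MCM10 was −0.37 to 0.22, −0.10 to 0.48 and −0.50 to 0.09. edgeR and DESeq2 also called none of them, and at an unadjusted p under 0.05 limma had 0 higher and 2 lower against BAQ12, 2 and 2 against BAQ13, and 0 and 4 against Lys05. In the fit without BAQ12 replicate 3, UHRF1 was called lower than with BAQ12, PCNA higher than with BAQ13 and MCM2 lower than with Lys05. The summed counts of the 36 genes with BAQ12O were 0.955 of those with BAQ12, with overlapping groups, and 1.07 of those with BAQ13 and 0.899 of those with Lys05, without overlap, where the exact permutation test of 3 against 3 libraries gave 0.1, the smallest p it allows.

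**Figure D5:**
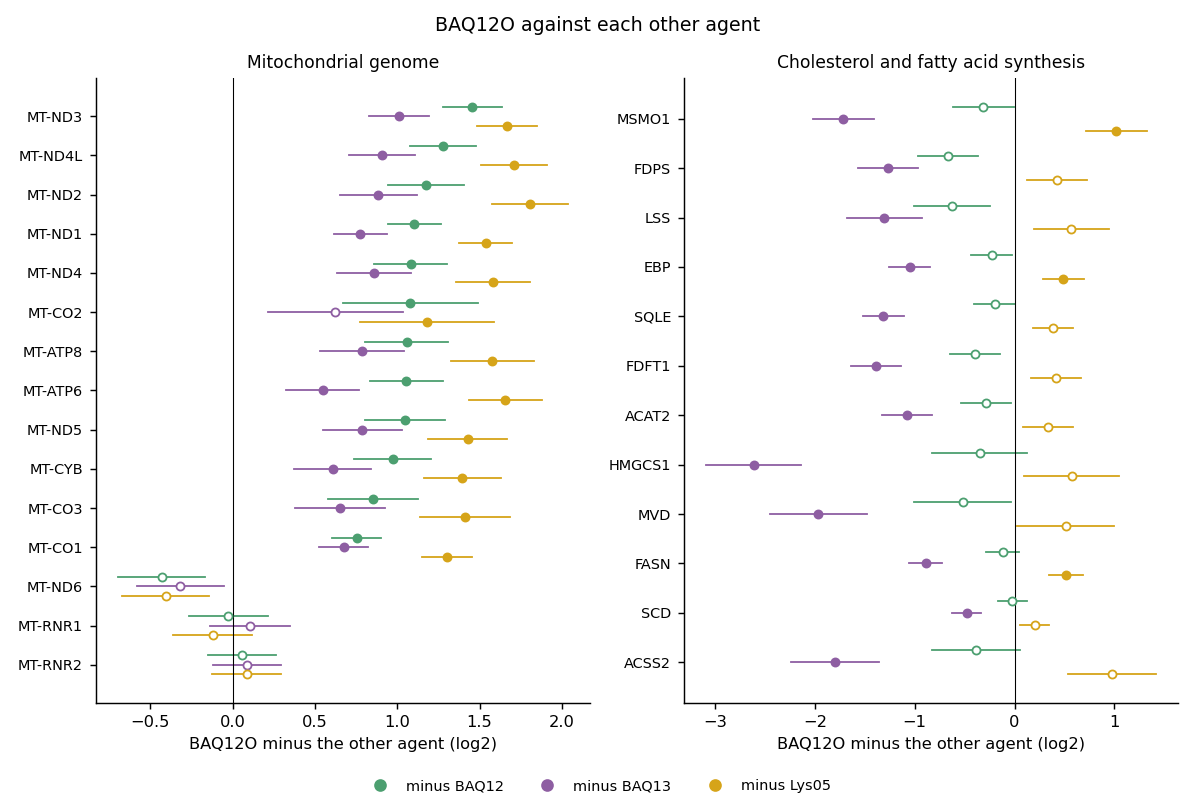
Points are differences BAQ12O minus another agent in log2 units and lines their 95% intervals, for genes of the mitochondrial genome (left) and of cholesterol and fatty acid synthesis (right); filled points passed the test. Against each agent all 12 heavy-strand mRNAs lie right of 0, and against BAQ13 all 12 synthesis genes lie left of 0.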

How the data were processed

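RNA of MIA PaCa-2 cells was sequenced in 5 groups of 3 libraries. The labels name a 3′-end kit (QuantSeq FWD) and the study's methods a stranded paired-end kit (NEBNext Ultra Directional), and which of them made these libraries cannot be told here. The submitters' processing notes name STAR, HTSeq, DESeq2 and GRCh38, without versions. The authors deposited 1 normalised signal value per gene and library, a read count divided by a size factor. Every non-zero value was a whole multiple of the worth of 1 read within 0.001, and reads were recovered from these steps. The files listed 60107 gene identifiers, of which 56531 were in GENCODE 29 (GRCh38), the source of gene coordinates.

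Values were tested as log2(value + 1) in limma 3.58.1 (R 4.3.3) with a mean-dependent prior, on all 15 libraries without covariates, for the 10495 genes kept by edgeR's filter (minimum count 10, total 15). Fold changes are on that scale and understate the change of low genes. P-values were adjusted by the Benjamini-Hochberg method over all genes of a comparison, and they measure the spread between these libraries, which may be technical. Alternatives were edgeR 4.0.16 and DESeq2 1.42.0 on the recovered reads, other scaling, pseudocounts and filters, fewer libraries, a replicate block and, chosen after seeing the data, a GC correction and leaving out BAQ12 replicate 3 with BAQ13 replicate 1. On simulated counts for BAQ12O against vehicle (10495 genes, 200 of them changed 2-fold) limma recovered 61% of the changed genes, with 6 false calls.

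Genes were named by rule: the 15 largest called increases and decreases with non-overlapping groups and a mean of at least 10 in the higher group, up to 6 called genes per list, fixed anchor genes of each list, and the 5 largest in each direction against each other agent. Other genes named were chosen after their values were seen, and some anchor genes are not reported here. The comparison, the 41 gene lists and this rule were chosen with earlier results of these data known. Promoter sequences are from RefSeq (GRCh38.p14).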

Additional observations from a re-analysis of the deposited data

How the results depend on the processing

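The count of 155 called genes for BAQ12O against vehicle depended most on the libraries that set the spread. It was 524 without BAQ12 replicate 3, 974 without BAQ12 replicate 3 and BAQ13 replicate 1, 871 with the 6 compared libraries alone, and 75 to 102 with 1 of the 6 left out (84, 76 and 75 without vehicle replicate 1, 2 and 3, and 102, 81 and 76 without BAQ12O replicate 1, 2 and 3). edgeR called 160 genes, DESeq2 139 and the GC-corrected fit 166. The count by fold and unadjusted p, 100 genes, was 23 with a pseudocount of 5, 23 with at least 10 reads in every library and 446 without a filter. Against BAQ12 the count of 24 was 8 with the compared libraries alone, 54 without BAQ12 replicate 3 and 288 without that library and BAQ13 replicate 1. Against BAQ13 the 146 became 387 and 534 under the last 2 of these settings, and against Lys05 the 26 became 83 and 261, and 223 with the compared libraries alone. The cause of these changes was not tested.

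No called gene changed sign under any of the 18 alternatives, and 50 of 155 were called under all of them. Genes not called in the main comparison changed sign with 1 library left out, with log2 differences of −0.028 to 0.458 over these fits for ATP6V0D1, −0.01 to 0.152 for CTSB, −0.055 to 0.061 for MAP1LC3B, −0.054 to 0.171 for TRIB3, −0.034 to 0.87 for CDKN1A, −0.243 to 0.077 for FTH1, −0.214 to 0.033 for GPX4 and −0.197 to 0.019 for CXCL8.

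Over all genes tested, BAQ12O and vehicle libraries with the same replicate number did not deviate together (correlations of 0.01, −0.03 and 0.01). This check left out the other agents and cannot exclude a pairing that touches only part of the genes. A fit that took these numbers as a replicate block called 119 genes against vehicle, 16 against BAQ12, 103 against BAQ13 and 21 against Lys05. Depth limits low genes: in the simulation limma recovered 92.1% of 2-fold changes above the median level and 29.3% below it.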
